A study of Mus musculus with 24 samples.

Results

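The comparison described here set the mouse gastrocnemius 14 days after denervation against the same muscle 7 days after it. Its members are the libraries whose titles place them at day 14 or day 7, 4 libraries in each group and 8 of the 24 in the series. Both groups are denervated muscle, so loss of the motor nerve is shared by all 8 libraries and the control group does not enter the comparison. The labels give the organism (Mus musculus), the tissue (gastrocnemius, the large calf muscle) and the day. They do not give the strain, sex or age of the mice, or which nerve was interrupted and how. They also do not say that each library is a different animal, so every p-value here reflects variation among libraries, and that variation may be technical. The extraction text shared by all samples names dorsal root ganglion neurons, whereas the source and tissue labels say gastrocnemius.

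A muscle fibre that loses its nerve shrinks, and it also changes which genes its nuclei read. In innervated fibres, electrical activity keeps the genes for the acetylcholine receptor silent outside the synapse. After denervation the myogenic factor myogenin rises, receptor subunits are made along the whole fibre, and the fetal gamma subunit returns. Around the fibres, Schwann cells of the cut nerve branches give up myelin and take on a repair state, macrophages clear debris, and fibroblasts remodel the matrix. Day 7 against day 14 asks how these programmes differed between an early and a later stage of the same denervated muscle.

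Messenger RNA was counted per gene, and the 8 libraries held 16082846 to 18404317 counts each. The genes with the highest levels per length at both days were muscle or mitochondrial genes. Acta1, which encodes skeletal muscle actin, was at 27119 ± 277 TPM at day 7 and 24724 ± 246 TPM at day 14, and mt-Co1, a mitochondrially encoded subunit of cytochrome c oxidase, at 30544 ± 377 TPM at day 7 and 35499.8 ± 219 TPM at day 14. Of 16 sensory neuron markers, 5 passed the expression filter, the summed level of the list was 8.03 to 9.89 CPM at day 7 and 9.87 to 12.1 CPM at day 14, and Calcb and Snap25 had no count in any of the 8 libraries. Libraries of the same day were alike (biological coefficient of variation 0.0344 over all genes), and the first principal component, which held 66.6% of the variance, separated the days. Across the series the days did not follow a steady course: Chrng, a gene silent in innervated fibres, was at 44.4 ± 3.1 CPM at day 1 and 0.563 ± 0.098 CPM at day 3 (scaled over all 24 libraries), the latter near control, and all 8 libraries compared here were well above control. Because the samples are whole muscle, fewer cells of a type and less RNA per cell cannot be told apart.

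Levels are given as CPM, counts relative to library size after scaling of the 8 libraries by the TMM method, in library order 1 to 4 or as mean ± SD (n = 4 libraries per group). Fold changes and their standard errors come from an edgeR quasi-likelihood fit over all 13548 genes that passed the filter. Every adjusted p below is an edgeR value adjusted by the Benjamini-Hochberg method over those genes, and "rose" or "fell" means an adjusted p below 0.05, with day 14 compared with day 7.

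Many genes differed between the days, mostly by small amounts. In all, 7487 of 13548 genes changed (55.3%), of which 3711 rose (27.4% of genes tested) and 3776 fell (27.9%). The median change of the genes that passed was 0.34 on the log2 scale, and the median over all genes tested was 0.01. At least 1.5-fold changes were fewer: 844 genes rose (6.23%) and 1007 fell (7.43%). At least 4-fold, 61 genes rose and 83 fell. All 4 libraries of one day lay beyond all 4 of the other in 47.7% of genes tested, 23.3% higher and 24.4% lower at day 14. The counts of list members below are to be read against these shares, since a list in which 27.4% of members rose and 27.9% fell is at the background.

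**Figure D1:**
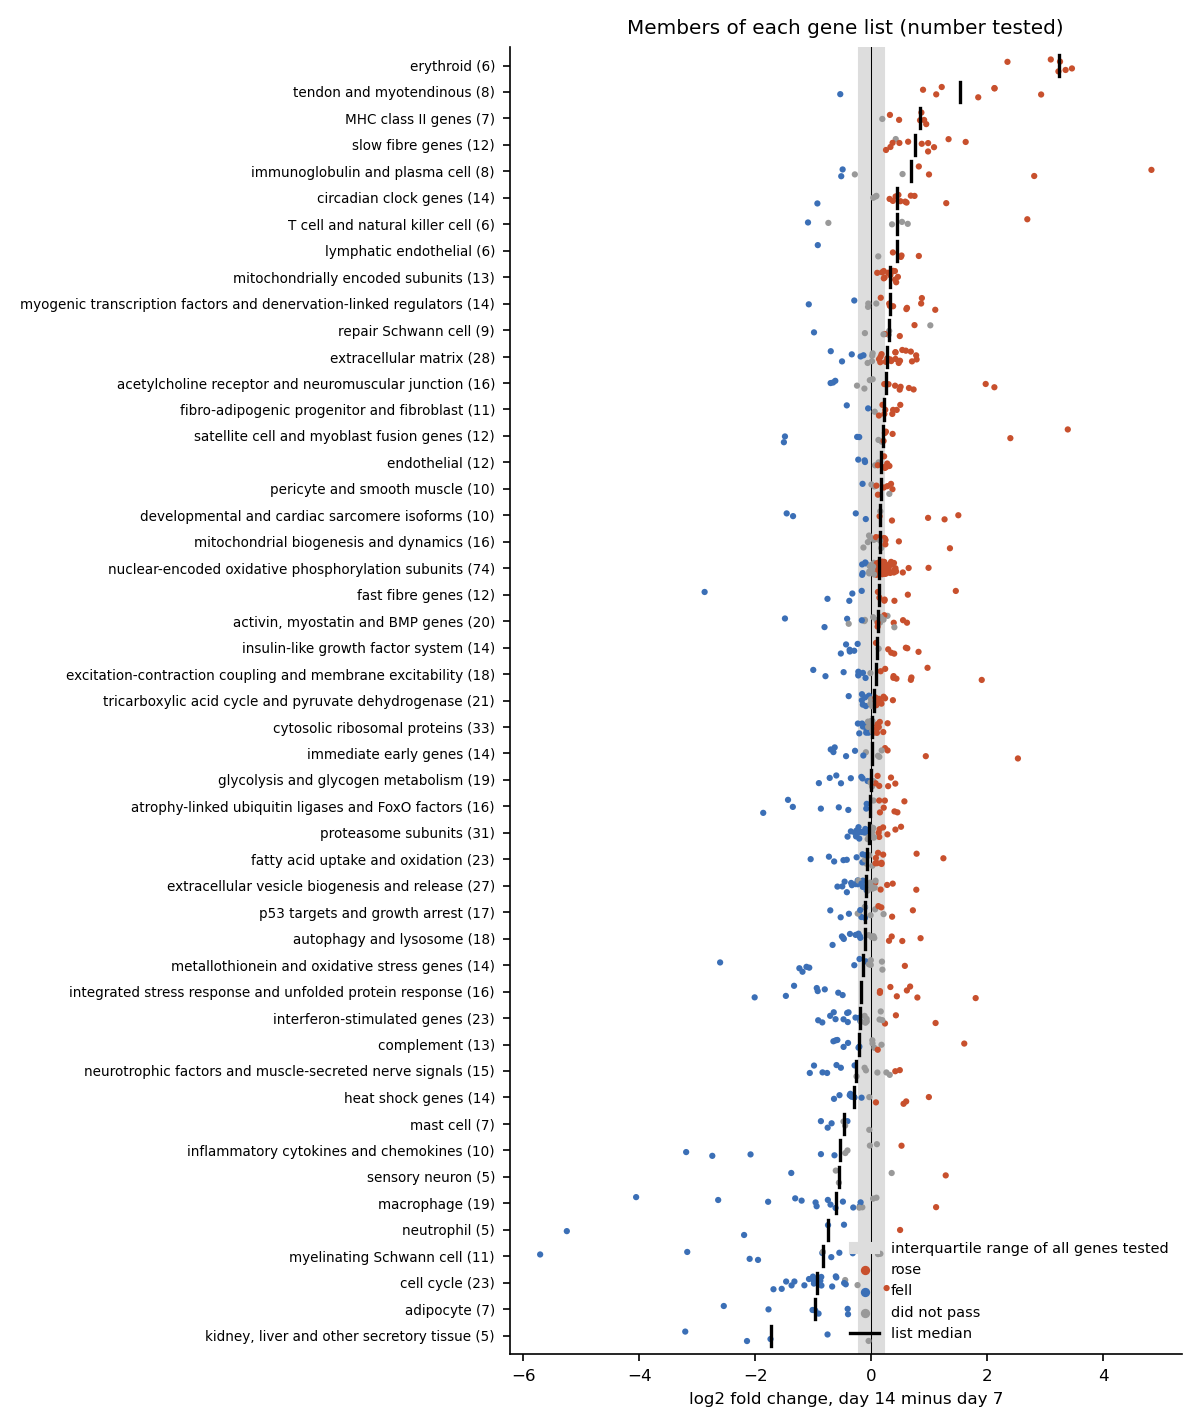
Log2 fold change, day 14 minus day 7, of each tested member (point) of the gene lists with at least 3 tested members, ordered by list median (black bar), with red for genes that rose, blue for genes that fell, grey for those that did not pass, and a grey band for the interquartile range of all genes tested. Erythroid, tendon, MHC class II and slow fibre lists sit at the top, with medians of 3.24, 1.53, 0.84 and 0.75, and cell cycle and adipocyte lists near the bottom, with medians of −0.93 and −0.97.

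The acetylcholine receptor of adult muscle is a pentamer of alpha, beta, delta and epsilon subunits, and the fetal form carries gamma in place of epsilon. Because the promoters of these genes are read by myogenic factors that bind the E-box (CANNTG), the stretch of 250 bases before the RefSeq start is shown here for the subunits that moved in opposite directions and for Myog, with every CANNTG in capitals (GRCm38.p6, 5′ to 3′ on the gene's strand). CANNTG is its own reverse complement, so 1 search covers both strands.
Chrng (chr1:87205561-87205810, plus strand): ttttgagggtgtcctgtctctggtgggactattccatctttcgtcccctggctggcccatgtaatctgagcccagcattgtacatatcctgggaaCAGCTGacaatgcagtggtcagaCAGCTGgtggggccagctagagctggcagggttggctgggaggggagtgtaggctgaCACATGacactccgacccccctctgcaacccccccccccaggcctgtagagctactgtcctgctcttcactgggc
Chrna1 (chr2:73580339-73580588, minus strand): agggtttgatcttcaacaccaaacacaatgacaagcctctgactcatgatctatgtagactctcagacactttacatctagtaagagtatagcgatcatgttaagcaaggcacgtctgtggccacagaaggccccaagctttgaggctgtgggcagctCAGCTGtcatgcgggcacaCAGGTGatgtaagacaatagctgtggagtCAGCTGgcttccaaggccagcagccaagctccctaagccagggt
Chrne (chr11:70619195-70619444, minus strand): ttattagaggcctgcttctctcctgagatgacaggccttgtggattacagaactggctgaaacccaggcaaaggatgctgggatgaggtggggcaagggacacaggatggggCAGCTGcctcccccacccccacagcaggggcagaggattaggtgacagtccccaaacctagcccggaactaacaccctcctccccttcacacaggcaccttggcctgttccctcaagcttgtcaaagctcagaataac
Myog (chr1:134289754-134290003, plus strand): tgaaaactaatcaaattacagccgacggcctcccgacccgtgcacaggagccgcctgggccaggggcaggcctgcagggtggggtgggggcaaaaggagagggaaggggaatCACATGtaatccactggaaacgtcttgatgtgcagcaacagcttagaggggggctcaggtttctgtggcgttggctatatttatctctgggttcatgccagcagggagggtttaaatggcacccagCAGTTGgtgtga
In these windows Chrng and Chrna1 each held 3 matches to CANNTG, Myog 2 and Chrne 1. Of all 32851 promoter windows of this length, 66.2% held at least 1 match, 31.8% at least 2 and 12.2% at least 3. The form CAGCTG, which is 1 case of CANNTG, occurred 2 times in the Chrng window, 2 times in that of Chrna1, 1 time in that of Chrne and 0 times in that of Myog. Of the genes whose windows are not printed, Chrnb1 held 3 CANNTG and 0 CAGCTG, and Musk 3 and 1, so CAGCTG was present in a gene that fell and absent from some that rose. Chrnd, the delta subunit, was not found among the promoter windows and was not searched. At least 2 copies of CAGCTG were present in 1.26% of all windows. CCGGAA, searched on both strands as a core of the ETS factor site used by synaptic genes, occurred 1 time in the Chrne window, 0 times in the other 3, and in 12% of all windows. The RefSeq start of Chrng lies inside the longer GENCODE gene model whose coordinates are given below. Matches of this kind are a description of the letters and not of bound sites.

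Chrng and Chrnd, the gamma and delta subunits, rose most among the 16 receptor and junction genes, while the adult epsilon subunit fell. Chrng, the gamma subunit (ENSMUSG00000026253, chromosome 1, 87204657 to 87212694, plus strand), stood at 80.5, 77.2, 76.8 and 77.6 CPM in the day 7 libraries and 344, 339, 343 and 331 CPM in the day 14 libraries. The groups did not overlap, and Chrng rose 4.35-fold (log2 2.12 ± 0.027, adjusted p = 1.4e-38). Chrnd, the delta subunit (ENSMUSG00000026251, chromosome 1, 87190607 to 87200070, plus strand), read 143, 146, 142 and 142 CPM in the day 7 libraries and 565, 561, 553 and 568 CPM in the day 14 libraries, and it rose 3.92-fold (log2 1.97 ± 0.022, adjusted p = 1.7e-40). The adult epsilon subunit went the other way, and all 4 of its day 14 libraries lay below those of day 7. Chrne stood at 8.37, 9.03, 8.83 and 10.4 CPM in the day 7 libraries and 6.23, 5.3, 5.69 and 6.01 CPM in the day 14 libraries and fell 1.58-fold (log2 −0.66 ± 0.12, adjusted p = 1e-05). Alpha, beta and delta subunits are present in both receptor forms, and the alpha and beta genes rose less than Chrnd: Chrna1 by 1.4-fold, from 895 ± 8.6 to 1255 ± 14 CPM, and Chrnb1 by 1.17-fold, from 212 ± 1.5 to 247 ± 3.6 CPM. Per length, Chrng held 88.1 ± 1.2% of the summed TPM of Chrng and Chrne at day 7 and 97.8 ± 0.24% at day 14 (n = 4 libraries per group).

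Around the receptor, genes of the clustering machinery split. Musk, the receptor kinase that organises the synapse, rose 1.57-fold (log2 0.65 ± 0.038), from 68.8, 65.7, 67 and 62.2 CPM to 104, 99.8, 102 and 108 CPM, with no overlap. Lrp4, the agrin receptor that partners MuSK, fell 1.63-fold (log2 −0.70 ± 0.045), from 79.6, 78.2, 76.7 and 81.5 CPM to 52.7, 44.8, 48.6 and 48.3 CPM, also with no overlap. Etv4, an ETS transcription factor, rose 1.66-fold (log2 0.73 ± 0.19) at low level (from 2.32 ± 0.36 to 3.83 ± 0.49 CPM). Over all receptor and junction genes of the list, 9 of 16 tested genes rose, 3 fell and 4 stayed short of the threshold, with a median log2 change of 0.26.

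**Figure D2:**
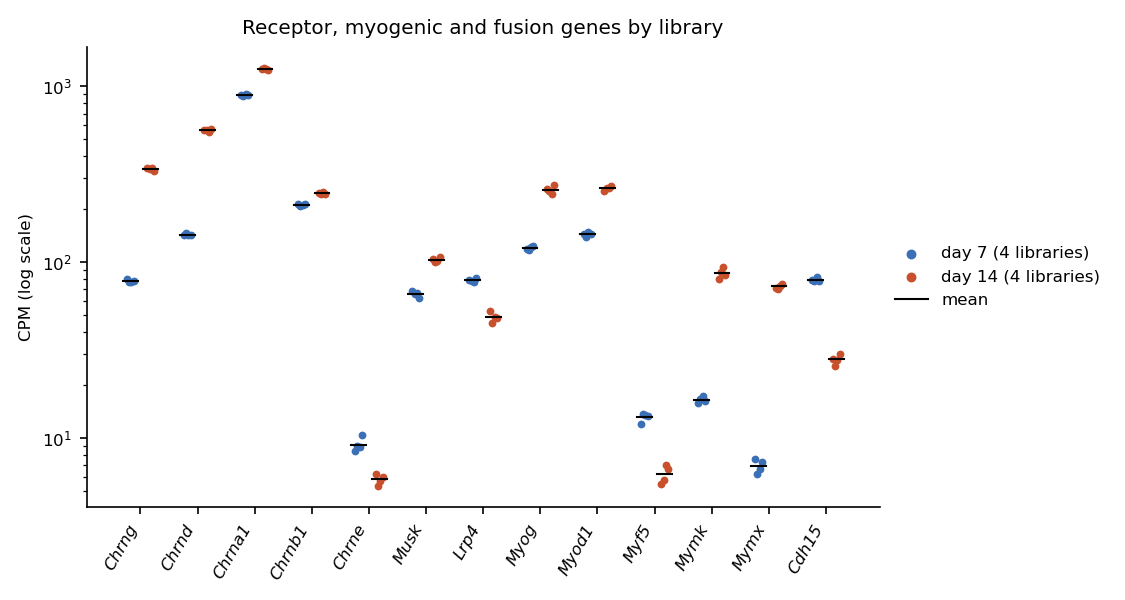
CPM (log scale) of receptor, myogenic and fusion genes in each of the 4 day 7 libraries (blue) and 4 day 14 libraries (red), with the mean as a black line. For each gene drawn the 2 groups of points are apart, with Chrng, Chrnd, Mymk and Mymx farthest above day 7 and Chrne, Lrp4, Myf5 and Cdh15 below it.

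Myogenic transcription factors drive muscle genes in the embryo and after denervation. Myog, myogenin (ENSMUSG00000026459, chromosome 1, 134289989 to 134292548, plus strand), stood at 119, 116, 122 and 123 CPM in the day 7 libraries and 260.4, 252, 245 and 273 CPM in the day 14 libraries. It rose 2.15-fold (log2 1.1 ± 0.03, adjusted p = 8.8e-28). Myod1 rose 1.83-fold (log2 0.87 ± 0.028), from 144 ± 3.8 to 262 ± 8.3 CPM, and Mef2a, a partner of the myogenic factors, rose 1.81-fold (log2 0.86 ± 0.022). Myf5, the earliest of the family in development and a gene of satellite cells, fell 2.11-fold (log2 −1.08 ± 0.11), from 13.1 ± 0.75 to 6.22 ± 0.71 CPM. Runx1, a denervation-induced transcription factor, rose 1.25-fold (from 199.8 ± 4.6 to 249 ± 1.9 CPM). Hdac4, a repressor that links denervation to Myog, did not pass, with 188 ± 7.2 CPM at day 7 and 181 ± 4.4 CPM at day 14 (log2 −0.06 ± 0.028, adjusted p = 0.089). It did pass when libraries were scaled by their totals alone (log2 −0.10) and without day 7 replicate 4 (log2 −0.07). Across the list of myogenic factors and denervation-linked regulators, 9 of 14 tested genes rose, 2 fell and 3 stayed short of the threshold, with a median log2 change of 0.31, and Dach2 did not pass the expression filter.

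Genes for membrane proteins that fuse myoblasts were among the 61 that rose at least 4-fold. Mymx, myomixer (ENSMUSG00000079471, chromosome 17, 45600971 to 45602102, minus strand), stood at 7.63, 6.26, 6.62 and 7.28 CPM in the day 7 libraries and 71.6, 70.7, 73.3 and 75 CPM in the day 14 libraries. Mymk, myomaker (ENSMUSG00000009214, chromosome 2, 27061636 to 27072179, minus strand), stood at 15.7, 16.7, 17.2 and 16.2 CPM in the day 7 libraries and 79.8, 87.7, 93.9 and 84.8 CPM in the day 14 libraries. Neither gene's groups overlapped, and Mymx rose 10.5-fold (log2 3.39 ± 0.065, adjusted p = 6.4e-33) and Mymk 5.26-fold (log2 2.4 ± 0.056, adjusted p = 3.8e-30). Cdh15, the M-cadherin of satellite cells and myoblasts, fell 2.84-fold (log2 −1.51 ± 0.049), from 79.4 ± 1.9 to 28 ± 1.9 CPM. Mstn, myostatin, a secreted inhibitor of muscle growth, fell 2.81-fold (log2 −1.49 ± 0.079), from 28.7, 31.3, 29.4 and 26.5 CPM to 9.75, 11.3, 10.1 and 10.1 CPM. Ncam1, an adhesion molecule that spreads over denervated fibres, rose 1.19-fold. In this list 6 of 12 tested genes rose, 4 fell and 2 stayed short of the threshold, with a median log2 change of 0.19. The fusion pair held the largest changes. The 2 that stayed short were the satellite cell genes Pax7 and Calcr, named after their values were seen.

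In the sarcomere, slow fibre genes rose together. Of the slow fibre list, 11 of 12 tested genes rose, 0 fell and 1 stayed short of the threshold, with a median log2 change of 0.75, and 7 of the 12 rose at least 1.5-fold. Myl2, the slow regulatory light chain, stood at 106, 108, 96.4 and 103 CPM in the day 7 libraries and 323, 325, 315 and 314 CPM in the day 14 libraries, and it rose 3.09-fold (log2 1.63 ± 0.029, adjusted p = 5.7e-34). Myl3, the slow essential light chain, rose 2.52-fold, and Tnnc1, slow troponin C, 2.11-fold. Myh7, the slow myosin heavy chain, rose 1.97-fold (log2 0.98 ± 0.022), from 454, 453, 448 and 469.8 CPM to 876, 874, 895 and 951 CPM. All 11 genes that rose had every day 14 library above every day 7 library.

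The fast fibre list moved in both directions. Here 7 of 12 tested genes rose, 5 fell and 0 stayed short of the threshold, with a median log2 change of 0.13. Mybpc2, fast myosin-binding protein C (ENSMUSG00000038670, chromosome 7, 44501699 to 44524656, minus strand), stood at 1053, 1044, 1062 and 1057 CPM in the day 7 libraries and 154, 139.6, 138 and 143 CPM in the day 14 libraries, and it fell 7.33-fold (log2 −2.87 ± 0.024, adjusted p = 7.6e-45). Myh4, the heavy chain of the fastest fibres, fell 1.69-fold (log2 −0.76 ± 0.012), from 10674 ± 157 to 6319.9 ± 115 CPM. Myh1, the heavy chain of fast type IIX fibres, rose 2.74-fold (log2 1.46 ± 0.015), from 1497 ± 29 to 4106 ± 79.7 CPM, and Myh2, that of type IIA fibres, rose 1.32-fold. Myl1, the fast essential light chain, rose 1.55-fold (log2 0.63 ± 0.011). None of the 12 members overlapped between the days.

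Expressed per length, the make-up of the myosin heavy chains differed accordingly. Among the summed TPM of Myh1, Myh2, Myh3, Myh4, Myh7 and Myh8, Myh4 held 71.5 ± 0.16% at day 7 and 43.1 ± 0.45% at day 14. Myh1 held 10.4 ± 0.071% and 29.0 ± 0.19%, and Myh2 held 13.3 ± 0.15% and 17.8 ± 0.044%. Myh7 held 3.09 ± 0.095% and 6.09 ± 0.28%, and Myh3, the embryonic chain, 1.21 ± 0.027% and 3.49 ± 0.032% (n = 4 libraries per group for each share). Myh4 was the most abundant of these transcripts at both days, with Myh2 next at day 7 and Myh1 next at day 14.

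Developmental and cardiac isoforms did not move as one. In that list 5 of 10 tested genes rose, 4 fell and 1 stayed short of the threshold, with a median log2 change of 0.15. Myh3 rose 2.83-fold (log2 1.5 ± 0.023, adjusted p = 4.4e-36), from 182, 178, 186 and 182 CPM to 509, 504, 511 and 531 CPM, and Tnnt2, cardiac troponin T, rose 2.4-fold (log2 1.26 ± 0.074). Actc1, cardiac actin, fell 2.75-fold (log2 −1.46 ± 0.033), from 202, 200.4, 206 and 206 CPM to 79.2, 71.2, 70.7 and 75.4 CPM, and Myl4, the atrial and embryonic light chain, fell 2.55-fold (log2 −1.35 ± 0.036). Myh8, the perinatal heavy chain, rose 1.1-fold, and Ankrd1, a stretch-responsive gene, fell 1.2-fold.

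**Figure D3:**
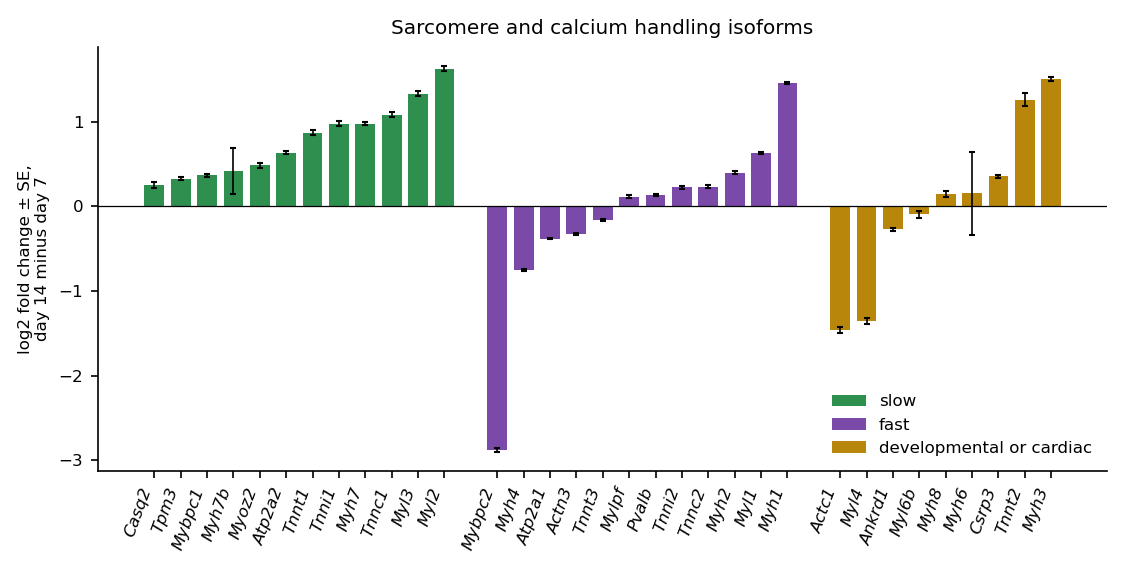
Log2 fold change, day 14 minus day 7, of slow (green), fast (purple) and developmental or cardiac (gold) genes, with bars from 0 and standard errors from the fit of 4 libraries against 4. All slow genes lie above 0, Mybpc2 at −2.87 and Myh4 at −0.76 lie below it beside Myh1 at 1.46, and Myh7b and Myh6, with wide errors, did not pass.

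Among genes of calcium handling and excitability, Sln and Casq1 of the sarcoplasmic reticulum rose most. Sln, sarcolipin, a small inhibitor of the calcium pump, stood at 531, 529, 530.4 and 505 CPM in the day 7 libraries and 1925, 1948, 2002 and 1957 CPM in the day 14 libraries, and it rose 3.74-fold (log2 1.9 ± 0.018, adjusted p = 2.4e-43). Casq1, the calcium buffer of fast fibres, rose 1.96-fold (log2 0.97 ± 0.016). Kcnj2, an inward rectifier potassium channel, fell 2.0-fold (log2 −1.0 ± 0.056), and Cacng1, the gamma subunit of the muscle calcium channel, fell 1.73-fold (log2 −0.79 ± 0.018). Over the list, 9 of 18 tested genes rose, 8 fell and 1 stayed short of the threshold, with a median log2 change of 0.07.

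The best known ubiquitin ligases of atrophy fell. Trim63, MuRF1 (ENSMUSG00000028834, chromosome 4, 134315120 to 134329629, plus strand), stood at 389, 372, 369.8 and 399 CPM in the day 7 libraries and 147, 139.9, 135 and 144 CPM in the day 14 libraries. Fbxo32, atrogin-1 (ENSMUSG00000022358, chromosome 15, 58175879 to 58214932, minus strand), stood at 473, 463, 458 and 468 CPM in the day 7 libraries and 124, 128, 128 and 132 CPM in the day 14 libraries. With no overlap in either gene, Trim63 fell 2.71-fold (log2 −1.44 ± 0.028, adjusted p = 9.6e-33) and Fbxo32 3.64-fold (log2 −1.86 ± 0.024, adjusted p = 1.4e-38). Asb2, another ligase subunit, fell 2.56-fold, and Fbxl22 fell 1.83-fold at low level (from 8.87 ± 1.2 to 4.89 ± 1.2 CPM). Fbxo30, the MUSA1 ligase, fell 1.32-fold. In the list with FoxO factors, 7 of 16 tested genes rose, 8 fell and 1 stayed short of the threshold, with a median log2 change of −0.02, and 4 members fell at least 1.5-fold while 0 rose by as much. The median changed sign without day 7 replicate 4 and without day 14 replicate 3 (0.001 and 0.01).

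Growth arrest genes of the p53 pathway were divided as well. Gadd45a rose 1.64-fold (log2 0.72 ± 0.02), from 402, 419, 391 and 401 CPM to 650.4, 665, 671 and 665 CPM, whereas Cdkn1a, the p21 inhibitor of the cell cycle, fell 1.63-fold (log2 −0.71 ± 0.02), from 703, 708, 721 and 710.3 CPM to 423, 432, 436 and 448 CPM. In that list 4 of 17 tested genes rose, 7 fell and 6 stayed short of the threshold, with a median log2 change of −0.11. Proteasome subunits stayed within 1.5-fold: 7 of 31 tested genes rose, 13 fell and 11 stayed short of the threshold, with a median log2 change of −0.04, with Psmc1, an ATPase of the cap, up 1.43-fold and Psmd2 down 1.33-fold. Among autophagy and lysosome genes, 4 of 18 tested genes rose, 9 fell and 5 stayed short of the threshold, with a median log2 change of −0.12. Ctsd, the lysosomal protease cathepsin D, fell 1.59-fold (log2 −0.67 ± 0.014), and Ctsk, cathepsin K, rose 1.8-fold (log2 0.85 ± 0.045).

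Respiratory chain genes were slightly higher at day 14. All 13 mitochondrially encoded subunits rose (median log2 0.33), mt-Cytb by 1.37-fold and mt-Co1, the most abundant, by 1.22-fold (from 25716 ± 193 to 31421 ± 103 CPM). Of the nuclear-encoded subunits, 53 of 74 tested genes rose, 5 fell and 16 stayed short of the threshold, with a median log2 change of 0.13, and 2 rose at least 1.5-fold. These were the muscle isoforms Cox7a1 (1.98-fold) and Cox6a2 (1.56-fold) of cytochrome c oxidase. In the mitochondrial biogenesis and dynamics list, 8 of 16 tested genes rose, 0 fell and 8 stayed short of the threshold, with a median log2 change of 0.14. Esrrg, an orphan nuclear receptor of oxidative muscle, stood at 14.5, 16.2, 16.4 and 17 CPM in the day 7 libraries and 39.9, 39.9, 42.2 and 41.9 CPM in the day 14 libraries and rose 2.56-fold (log2 1.35 ± 0.064, adjusted p = 2.7e-20). Ppargc1a, the coactivator PGC-1 alpha, did not pass, with 12.6 ± 1.4 CPM at day 7 and 13.4 ± 0.74 CPM at day 14 (log2 0.09 ± 0.092, adjusted p = 0.44).

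Fuel use genes were mixed. In fatty acid uptake and oxidation, 9 of 23 tested genes rose, 9 fell and 5 stayed short of the threshold, with a median log2 change of −0.07. Fabp3, the fatty acid carrier of heart and slow muscle, rose 2.36-fold (log2 1.24 ± 0.033), from 84.6 ± 5.0 to 200.0 ± 3.3 CPM, and Cpt1b, the gate to mitochondrial fatty acid oxidation, rose 1.72-fold (log2 0.78 ± 0.035). Lpl, lipoprotein lipase, fell 2.07-fold (log2 −1.05 ± 0.021), and Fabp4, the carrier of adipocytes and capillaries, fell 1.66-fold (log2 −0.73 ± 0.022) in libraries in which adipocyte markers fell too. Of citric acid cycle and pyruvate dehydrogenase genes, 10 of 21 tested genes rose, 7 fell and 4 stayed short of the threshold, with a median log2 change of 0.05, 0 of them by 1.5-fold, with Pdk4, a brake on glucose oxidation, down 1.31-fold. In glycolysis and glycogen metabolism, 6 of 19 tested genes rose, 8 fell and 5 stayed short of the threshold, with a median log2 change of −0.01, with Pgm1 down 1.87-fold and Pygm, muscle glycogen phosphorylase, down 1.64-fold (log2 −0.72 ± 0.015).

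Stress genes held some of the larger contrasts within 1 list. Among genes of the integrated stress response and unfolded protein response, 8 of 16 tested genes rose, 8 fell and 0 stayed short of the threshold, with a median log2 change of −0.17. This median was 0.13 to 0.16 under 8 of the 15 alternatives tried. Mthfd2, a mitochondrial folate enzyme, rose 3.48-fold (log2 1.8 ± 0.074), from 11, 11.9, 9.85 and 9.35 CPM to 36.8, 37.3, 35.7 and 36.9 CPM, while Psat1, an enzyme of serine synthesis, fell 2.52-fold (log2 −1.33 ± 0.07), from 36.9, 35.6, 34.1 and 33.1 CPM to 15, 12.7, 13.6 and 14.3 CPM. Chac1 fell 2.78-fold and Fgf21, a stress hormone, fell 4.03-fold, both at low level (from 5.94 ± 1.0 to 2.13 ± 0.31 CPM and from 0.974 ± 0.26 to 0.235 ± 0.18 CPM). In the heat shock list, 4 of 14 tested genes rose, 9 fell and 1 stayed short of the threshold, with a median log2 change of −0.29. The small heat shock genes Hspb6 (1.99-fold), Hspb8 (1.52-fold) and Hspb7 (1.47-fold) rose, while Hspb1 and Cryab, of the same small class and chosen after their values were seen, fell 1.26-fold and 1.22-fold, and Hspe1, a mitochondrial chaperonin partner, fell 1.56-fold. Of metallothionein and oxidative stress genes, 1 of 14 tested genes rose, 8 fell and 5 stayed short of the threshold, with a median log2 change of −0.15. Mt2, a metal-binding metallothionein, stood at 152, 148, 135 and 150.4 CPM in the day 7 libraries and 26.7, 21.7, 23.7 and 24.2 CPM in the day 14 libraries and fell 6.09-fold (log2 −2.61 ± 0.049, adjusted p = 2.6e-33), and Mt1 fell 2.36-fold (log2 −1.24 ± 0.057).

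Secreted signals between muscle and nerve were mostly lower or did not pass. In the list of neurotrophic factors and muscle-secreted nerve signals, 2 of 15 tested genes rose, 7 fell and 6 stayed short of the threshold, with a median log2 change of −0.26. Gdnf, a survival factor for motor neurons made by muscle and Schwann cells, stood at 19.6, 14.3, 16.1 and 15.7 CPM in the day 7 libraries and 8.88, 8.77, 7.38 and 8.03 CPM in the day 14 libraries, and it fell 1.98-fold (log2 −0.99 ± 0.1, adjusted p = 1.2e-10). Lif, a cytokine of the interleukin-6 family, fell 1.7-fold (log2 −0.76 ± 0.21) at low level. Nrtn fell 2.09-fold and Cntf 1.79-fold. Nrtn did not pass without day 7 replicate 1 or without day 14 replicate 1, 2 or 3 (adjusted p = 0.051 to 0.097), and Cntf did not pass without day 7 replicate 1 or 4 or without day 14 replicate 2 or 4 (adjusted p = 0.057 to 0.12). Ngfr, the low-affinity neurotrophin receptor, rose 1.4-fold (from 30.8 ± 1.3 to 43.2 ± 1.1 CPM).

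Growth signals to the fibre moved in both directions. Among activin, myostatin and BMP genes, 6 of 20 tested genes rose, 4 fell and 10 stayed short of the threshold, with a median log2 change of 0.11. At least 1.5-fold, 1 of the 20 rose and 2 fell, against 6.23% and 7.43% of all genes tested. The largest change of the list was that of Mstn, given above, which fell 2.81-fold. Gdf5, a BMP ligand that limits denervation atrophy, fell 1.75-fold (log2 −0.81 ± 0.091), from 18.8, 17.3, 17.6 and 16 CPM to 9.93, 8.83, 9.64 and 11.5 CPM, Gdf11 rose 1.53-fold, and Fst, the activin and myostatin binding protein follistatin, rose 1.46-fold (log2 0.55 ± 0.049). In the insulin-like growth factor system, 7 of 14 tested genes rose, 6 fell and 1 stayed short of the threshold, with a median log2 change of 0.10, with the binding proteins Igfbp6 (1.76-fold), Igfbp3 (1.54-fold) and Igfbp2 (1.51-fold) higher and Igf1 lower (1.44-fold).

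Vesicle genes bear on the title of the series, which concerns extracellular vesicles of denervated muscle. Of genes for vesicle formation and secretion, 5 of 27 tested genes rose, 14 fell and 8 stayed short of the threshold, with a median log2 change of −0.09, and 1 member changed at least 1.5-fold. This was Rab27b, a guide of vesicle release, which rose 1.71-fold (log2 0.77 ± 0.21) at low level (from 1.83 ± 0.25 to 3.13 ± 0.28 CPM). Hgs, which sorts cargo into multivesicular bodies, fell by 0.58 ± 0.036 on the log2 scale, just under 1.5-fold, and Smpd3, which makes ceramide for vesicle budding, fell 1.42-fold (log2 −0.50 ± 0.098). Cd63, a tetraspanin of exosomes, fell 1.07-fold, from 275 ± 8.5 to 258 ± 3.3 CPM. Rab27a did not pass, with 5.53 ± 0.4 CPM at day 7 and 4.74 ± 0.39 CPM at day 14 (log2 −0.22 ± 0.14, adjusted p = 0.18).

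Genes of myelin fell. Mbp, myelin basic protein, stood at 74.5, 75.3, 75 and 75.3 CPM in the day 7 libraries and 19.7, 18.3, 15.1 and 17.1 CPM in the day 14 libraries, with no overlap, and fell 4.28-fold (log2 −2.1 ± 0.057, adjusted p = 6.2e-28). Prx, periaxin, fell 3.87-fold (log2 −1.95 ± 0.12), and Ncmap, a myelin-associated membrane protein, fell 9.02-fold (log2 −3.17 ± 0.55) at very low level. In the myelinating Schwann cell list, 0 of 11 tested genes rose, 8 fell and 3 stayed short of the threshold, with a median log2 change of −0.84. The Schwann cell identity factor Sox10 did not pass, with 7.95 ± 0.81 CPM at day 7 and 8.87 ± 1.1 CPM at day 14 (log2 0.16 ± 0.11, adjusted p = 0.26). Among repair Schwann cell markers, 3 of 9 tested genes rose, 1 fell and 5 stayed short of the threshold, with a median log2 change of 0.30, Gdnf being the member that fell and Btc, the growth factor betacellulin, rising 1.67-fold. Sox10 is named here for its role in the lineage and was chosen after its values were seen.

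**Figure D4:**
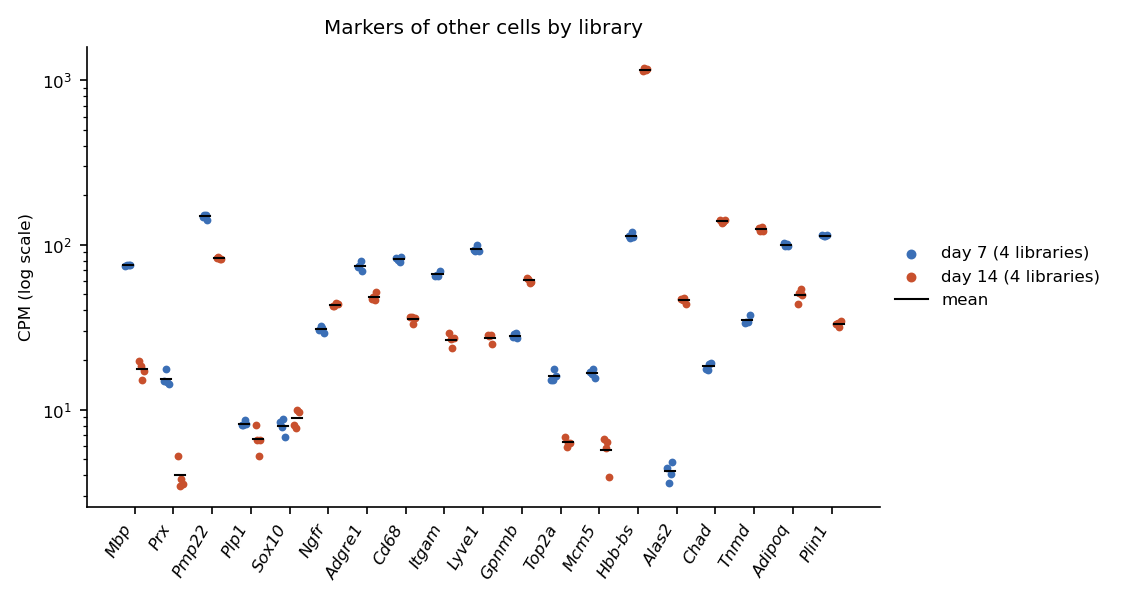
CPM (log scale) of markers of Schwann cells (Mbp to Ngfr), macrophages (Adgre1 to Gpnmb), dividing cells (Top2a, Mcm5), blood (Hbb-bs, Alas2), tendon (Chad, Tnmd) and fat (Adipoq, Plin1) in each of the 4 day 7 libraries (blue) and 4 day 14 libraries (red), with the mean as a black line. Mbp shows the widest gap downward, Hbb-bs and Alas2 the widest upward, and Sox10 overlaps.

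Inflammatory genes were lower at day 14, with a few exceptions. Among macrophage markers, 1 of 19 tested genes rose, 14 fell and 4 stayed short of the threshold, with a median log2 change of −0.62. The summed level ran from 1681 to 1698 CPM at day 7 and 1249 to 1288 CPM at day 14. The member that rose was Gpnmb (log2 1.12), and those that stayed short were Cx3cr1, Trem2, Spp1 and Arg1. These were named after their values were seen. Lyve1, a marker of resident macrophages and of lymphatic vessels, stood at 92.4, 91.9, 99.1 and 92.3 CPM in the day 7 libraries and 28.2, 28, 28.2 and 24.9 CPM in the day 14 libraries and fell 3.43-fold (log2 −1.78 ± 0.047, adjusted p = 3e-28). Adgre1, the F4/80 surface protein, fell 1.53-fold (log2 −0.62 ± 0.047), from 74 ± 4.5 to 48.3 ± 2.3 CPM. Chil3, a lectin of alternatively activated macrophages, fell 16.6-fold (log2 −4.05 ± 0.31), and by 5.27 on the log2 scale without day 14 replicate 1, the highest of the day 14 libraries. Ly6c2, of inflammatory monocytes, fell 6.23-fold (log2 −2.64 ± 0.3), and Itgam fell 2.48-fold (log2 −1.31 ± 0.054).

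Among cytokines and chemokines, 10 of 16 passed the expression filter, and 1 of 10 tested genes rose, 5 fell and 4 stayed short of the threshold, with a median log2 change of −0.54. Ccl2, the main attractant of monocytes, stood at 12.9, 13.5, 12.5 and 12.9 CPM in the day 7 libraries and 2.1, 1.77, 2.25 and 1.58 CPM in the day 14 libraries and fell 6.69-fold (log2 −2.74 ± 0.14, adjusted p = 1.1e-19). Il1b fell 9.14-fold (log2 −3.19 ± 0.36) at low level (from 2.21 ± 0.3 to 0.237 ± 0.11 CPM), and Ccl7 fell 4.23-fold (log2 −2.08 ± 0.12). Of 11 neutrophil markers 5 passed the filter, and 1 of 5 tested genes rose, 4 fell and 0 stayed short of the threshold, with a median log2 change of −0.75, Retnlg, a neutrophil resistin-like gene, by 38-fold (log2 −5.25 ± 0.48). Mast cell markers fell where they passed the test, since 0 of 7 tested genes rose, 4 fell and 3 stayed short of the threshold, with a median log2 change of −0.48. In the complement list, 2 of 13 tested genes rose, 7 fell and 4 stayed short of the threshold, with a median log2 change of −0.21, with C1qb, of the initiating complex, down 1.57-fold and C7, of the membrane attack complex, up 3.03-fold (log2 1.6 ± 0.064). Interferon-stimulated genes were mostly lower, since 3 of 23 tested genes rose, 12 fell and 8 stayed short of the threshold, with a median log2 change of −0.19, with Rsad2, an antiviral enzyme gene, 2.15-fold (log2 1.11 ± 0.12) higher.

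MHC class II genes and the IgG heavy chain genes Ighg2c and Ighg2b rose. Among MHC class II genes, 6 of 7 tested genes rose, 0 fell and 1 stayed short of the threshold, with a median log2 change of 0.84, H2-Eb1 by 1.93-fold and H2-Aa by 1.88-fold (from 168 ± 4.8 to 315 ± 1.9 CPM). Ighg2c, the constant region of an IgG heavy chain (ENSMUSG00000076612, chromosome 12, 113285325 to 113288932, minus strand), stood at 1.07, 1.44, 1.07 and 0.971 CPM in the day 7 libraries and 34.8, 30.5, 32 and 33.7 CPM in the day 14 libraries, and it rose 28.4-fold (log2 4.83 ± 0.12, adjusted p = 1.9e-29). Ighg2b rose 7.0-fold (log2 2.81 ± 0.53) at low level (from 0.116 ± 0.045 to 0.857 ± 0.21 CPM). In the immunoglobulin and plasma cell list, 4 of 8 tested genes rose, 2 fell and 2 stayed short of the threshold, with a median log2 change of 0.68, and the median was −0.28 when genes had to reach 1 CPM in 4 or more libraries. Among the 4 that rose, Igkc and Jchain were also at low level (from 0.717 ± 0.24 to 1.27 ± 0.49 CPM and from 0.642 ± 0.21 to 1.28 ± 0.33 CPM). Igkc (adjusted p = 0.047) did not pass under 9 of the 15 alternatives (adjusted p = 0.054 to 0.22). Jchain did not pass under 2, without day 7 replicate 1 or day 14 replicate 1. The 2 that fell were Ighm, a heavy chain gene, and Xbp1, which is also in the stress response list above. Ighd and Igha did not pass, and these 4 genes were named after their values were seen. The summed level of the list was lower at day 14, with 319.9 to 334 CPM at day 7 and 260.2 to 277 CPM at day 14. The 4 genes that rose held little of this sum, since Ighg2c averaged 32.7 CPM at day 14 and each of the others 1.28 CPM or less. The sum also includes Xbp1, so it is not a measure of immunoglobulin RNA alone. Lymphocyte markers were near 0 at both days: the T cell and natural killer list summed to 6.68 to 9.79 CPM at day 7 and 8.85 to 10.9 CPM at day 14, and the lymph node vessel and B cell list to 1.4 to 2.8 CPM at day 7 and 2.54 to 3.54 CPM at day 14, with 6 of 16 and 2 of 11 members passing the filter. Of the 6 T cell and natural killer markers tested, 1 rose, 1 fell and 4 did not pass. Il7r, the interleukin-7 receptor, rose 6.44-fold (log2 2.69 ± 0.4), and by 3.45 on the log2 scale without day 7 replicate 1, and Gzma, a granzyme of killer cells, fell 2.13-fold (log2 −1.09 ± 0.36). The median of the list was 0.44, but −0.38 with no filter on low counts and −0.36 when all 24 libraries were fitted together.

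Cell division genes fell nearly as a block. In the cell cycle list, 1 of 23 tested genes rose, 20 fell and 2 stayed short of the threshold, with a median log2 change of −0.93, and 18 of the 23 fell at least 1.5-fold. Mcm5, a subunit of the replication helicase, stood at 17, 16.5, 17.6 and 15.5 CPM in the day 7 libraries and 6.6, 5.85, 6.37 and 3.92 CPM in the day 14 libraries, with no overlap. It fell 2.92-fold (log2 −1.55 ± 0.11, adjusted p = 1.1e-14), and Bub1 (3.22-fold), Plk1 (2.77-fold) and Aurkb (2.59-fold), kinases of mitosis, fell too. Rrm2, a subunit of ribonucleotide reductase chosen after its values were seen, was the member that rose, with 19.3 ± 2.2 CPM at day 7 and 23.2 ± 2.3 CPM at day 14 (log2 0.26 ± 0.081, adjusted p = 0.0062) and groups that overlapped. Macrophage markers fell in the same libraries, and their part in the fall of cell cycle genes was not tested.

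Most matrix genes rose moderately and most tendon genes strongly. In the extracellular matrix list, 19 of 28 tested genes rose, 5 fell and 4 stayed short of the threshold, with a median log2 change of 0.26. Col1a1, a chain of type I collagen, stood at 1810.3, 1791, 1801 and 1846 CPM in the day 7 libraries and 3076, 3118, 3072 and 3181 CPM in the day 14 libraries, and it rose 1.72-fold (log2 0.78 ± 0.014, adjusted p = 1.2e-33). Col1a2 rose 1.71-fold, and Postn, periostin of injured matrix, rose 1.21-fold (from 567 ± 4.3 to 687 ± 7.7 CPM). Postn did not pass when all 24 libraries were fitted together (adjusted p = 0.24). Timp1, an inhibitor of matrix proteases, fell 1.62-fold (log2 −0.70 ± 0.068). Markers of fibro-adipogenic progenitors and fibroblasts changed less, since 8 of 11 tested genes rose, 2 fell and 1 stayed short of the threshold, with a median log2 change of 0.22, 0 of them by 1.5-fold.

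Of the tendon and myotendinous list, 7 of 8 tested genes rose, 1 fell and 0 stayed short of the threshold, with a median log2 change of 1.53. The member that fell was Scx (log2 −0.54, with no overlap), named after its values were seen. Chad, chondroadherin, a matrix protein of tendon and cartilage (ENSMUSG00000039084, chromosome 11, 94565047 to 94569127, plus strand), stood at 17.6, 17.3, 19 and 19.2 CPM in the day 7 libraries and 141, 136, 137 and 142 CPM in the day 14 libraries, and it rose 7.6-fold (log2 2.93 ± 0.044, adjusted p = 3.3e-36). Comp, a cartilage and tendon matrix protein, rose 4.36-fold (log2 2.12 ± 0.054), Col22a1, a collagen of the myotendinous junction, rose 4.35-fold (log2 2.12 ± 0.061), and Tnmd, tenomodulin, rose 3.58-fold (log2 1.84 ± 0.042). Summed, the list ran from 484 to 503 CPM at day 7 and 1237 to 1253 CPM at day 14. The labels do not say how much tendon was taken with the muscle, and the part of tendon in the rise of matrix genes was not tested.

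Vessel markers changed little. Among endothelial markers, 7 of 12 tested genes rose, 3 fell and 2 stayed short of the threshold, with a median log2 change of 0.17, 0 of them by 1.5-fold, and among pericyte and smooth muscle markers, 6 of 10 tested genes rose, 1 fell and 3 stayed short of the threshold, with a median log2 change of 0.17, likewise 0 by 1.5-fold. In the lymphatic endothelial list, 4 of 6 tested genes rose, 1 fell and 1 stayed short of the threshold, with a median log2 change of 0.44, with Pdpn, podoplanin, down 1.9-fold and Mmrn1 up 1.76-fold.

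All 7 tested adipocyte markers fell, and the summed level of the list ran from 678 to 701 CPM at day 7 and 391 to 408 CPM at day 14 (median log2 −0.97). Adipoq, the hormone adiponectin, stood at 103, 97.8, 102 and 98.8 CPM in the day 7 libraries and 43.9, 50.7, 54.1 and 49.6 CPM in the day 14 libraries and fell 2.02-fold (log2 −1.01 ± 0.045, adjusted p = 3.6e-21). Plin1, which coats lipid droplets, fell 3.42-fold (log2 −1.77 ± 0.04), and Retn, resistin, fell 5.83-fold (log2 −2.54 ± 0.083), from 41.4 ± 4.0 to 7.08 ± 0.54 CPM. Fasn, fatty acid synthase (ENSMUSG00000025153, chromosome 11, 120805846 to 120824547, minus strand), stood at 1448, 1473, 1465 and 1442 CPM in the day 7 libraries and 137, 145, 144 and 143 CPM in the day 14 libraries. It fell 10.2-fold (log2 −3.36 ± 0.021, adjusted p = 6.2e-49), with no overlap. The part of adipose tissue carried with the muscle in the fall of Fasn, Lpl and Fabp4 was not tested.

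Blood genes formed the list with the highest median. All 6 erythroid genes rose (median log2 3.24), and the summed level ran from 254 to 269 CPM at day 7 and 2511 to 2579 CPM at day 14. Hbb-bs, an adult beta globin (ENSMUSG00000052305, chromosome 7, 103826534 to 103828096, minus strand), stood at 114, 110.2, 120.0 and 111 CPM in the day 7 libraries and 1140.2, 1184, 1148 and 1159 CPM in the day 14 libraries and rose 10.2-fold (log2 3.35 ± 0.023, adjusted p = 2.3e-47). Alas2, the haem synthesis enzyme of red cell precursors, rose 11-fold (log2 3.46 ± 0.083), from 4.22 ± 0.51 to 46.2 ± 1.6 CPM. The globin pairs are near-identical copies, so the split between them is uncertain. In the list of kidney, liver and other secretory tissue genes, 0 of 5 tested genes rose, 4 fell and 1 stayed short of the threshold. The median log2 change was −1.74. The 4 that fell were Alb, Mup18, Orm1 and Orm2, and Umod, a kidney gene, had no count in any of the 8 libraries. Orm1, an acute-phase glycoprotein with a near-identical copy in Orm2, fell 9.24-fold (log2 −3.21 ± 0.14). Keratinocyte markers were near 0, with 2 of 8 passing the filter and a summed level of 4.71 to 9.17 CPM at day 7 and 5.13 to 7.16 CPM at day 14.

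Clock genes were higher at day 14. In the circadian clock list, 10 of 14 tested genes rose, 1 fell and 3 stayed short of the threshold, with a median log2 change of 0.44, Per1, a core repressor of the clock, by 2.45-fold (log2 1.29 ± 0.062) and Per2 by 1.67-fold (log2 0.74 ± 0.053), while Npas2 fell 1.91-fold (log2 −0.93 ± 0.22). The labels do not give the hour of sampling. Among immediate early genes, 4 of 14 tested genes rose, 6 fell and 4 stayed short of the threshold, with a median log2 change of 0.01, and Egr3, a transcription factor of muscle spindles and activity, rose 5.76-fold (log2 2.53 ± 0.1, adjusted p = 4.6e-22), from 3.11, 3.99, 4.42 and 3.7 CPM to 20.1, 22.1, 23 and 22.4 CPM. Egr1 rose 1.92-fold (log2 0.94 ± 0.053). Cytosolic ribosomal proteins moved by small amounts in both directions, since 12 of 33 tested genes rose, 9 fell and 12 stayed short of the threshold, with a median log2 change of 0.02, and the sign of their median and that of the immediate early genes changed when libraries were scaled by their totals alone (−0.02 and −0.03). The ribosomal median also turned negative without day 7 replicate 3, and the immediate early median without day 7 replicate 1 and without day 14 replicate 1 or 4 (each −0.01).

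Several of the 15 largest rises and 15 largest falls belonged to no list above. Robo2, an axon guidance receptor for Slit (ENSMUSG00000052516, chromosome 16, 73891839 to 74411825, minus strand), stood at 3.73, 2.66, 1.79 and 2.79 CPM in the day 7 libraries and 46, 46.5, 44.2 and 43 CPM in the day 14 libraries, and it rose 16.3-fold (log2 4.02 ± 0.1, adjusted p = 5.6e-29). Cntn2, a neural adhesion molecule of the contactin family, rose 12.4-fold (log2 3.63 ± 0.13), from 1.42 ± 0.2 to 17.7 ± 0.95 CPM. Nnat, neuronatin, an imprinted gene, rose 12-fold (log2 3.58 ± 0.16), and Cpne4, a calcium-dependent membrane-binding protein, rose 12.8-fold (log2 3.68 ± 0.22). Mmp12, the macrophage elastase, rose 7.83-fold (log2 2.97 ± 0.09), from 4.34 ± 0.44 to 34.1 ± 2.1 CPM, in libraries in which 14 of 19 macrophage markers fell. Matn3, a cartilage matrix protein, rose 9.48-fold (log2 3.25 ± 0.24), and Otog, otogelin, rose 7.66-fold (log2 2.94 ± 0.2).

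Alpi, intestinal alkaline phosphatase (ENSMUSG00000079440, chromosome 1, 87098002 to 87101606, minus strand), had the largest rise among genes averaging 1 or more in log2 CPM. It stood at 0, 0.332, 0 and 0.303 CPM in the day 7 libraries and 10.4, 9.66, 8.68 and 9.36 CPM in the day 14 libraries. It rose 57.1-fold (log2 5.83 ± 0.29, adjusted p = 2.2e-19), and by 6.49 on the log2 scale without day 7 replicate 2. Its day 7 level rested on 11 counts over the 4 libraries.

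Among the falls outside the lists, Cish, a feedback inhibitor of cytokine signalling through STAT5, stood at 59, 64, 59 and 58.2 CPM in the day 7 libraries and 6.11, 4.8, 3.38 and 4.05 CPM in the day 14 libraries, and it fell 13.1-fold (log2 −3.71 ± 0.088, adjusted p = 5.6e-30). Chrna9, a nicotinic subunit of the inner ear that is not part of the muscle receptor, stood at 16.7, 16.2, 17.8 and 16.4 CPM in the day 7 libraries and 1.23, 2.15, 1.13 and 1.01 CPM in the day 14 libraries, and it fell 12-fold (log2 −3.58 ± 0.15, adjusted p = 3.5e-22) while Chrng and Chrnd rose. Alox15, a lipoxygenase of macrophages and eosinophils, fell 27.9-fold (log2 −4.8 ± 0.35), from 4.32 ± 0.56 to 0.149 ± 0.11 CPM, and H2-Q10, a secreted class I MHC gene, fell 17-fold (log2 −4.09 ± 0.23). The aldehyde-oxidising enzyme genes Aldh1a7 and Aox2 fell 15.6-fold and 8.17-fold. F5, coagulation factor V, fell 7.8-fold, Dusp9, a phosphatase of MAP kinases, 7.88-fold, Acaa1b, a peroxisomal thiolase, 9.35-fold, and Eps8l1, an actin regulator, 7.46-fold.

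The levels of these genes in the other groups place the step from day 7 to day 14 in the time course. For this description alone, CPM was scaled over all 24 libraries, so these values differ from those above, and no test was made. Chrng was 0.374 ± 0.17 CPM in control, 44.4 ± 3.1 at day 1, 0.563 ± 0.098 at day 3, 13.8 ± 1.2 at day 5, 66.5 ± 1.4 at day 7 and 291 ± 5.4 at day 14, so day 14 was its highest point. Mymx ran from 0.479 ± 0.34 CPM in control to 5.92 ± 0.53 at day 7 and 62.2 ± 1.6 at day 14, also its highest. Myl2 at day 14, 273 ± 4.9 CPM, lay between its day 7 level, 88.1 ± 4.2 CPM, and its control level, 319.9 ± 6.3 CPM.

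Trim63 was highest in control (3033 ± 115 CPM) and lowest at day 14 (121 ± 4.7 CPM). The course of Hbb-bs was uneven, with 386 ± 3.0 CPM in control, 1330.0 ± 33 at day 1, 91.9 ± 2.3 at day 3, 123 ± 3.3 at day 5, 96.9 ± 3.9 at day 7 and 991 ± 14 at day 14.

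**Figure D5:**
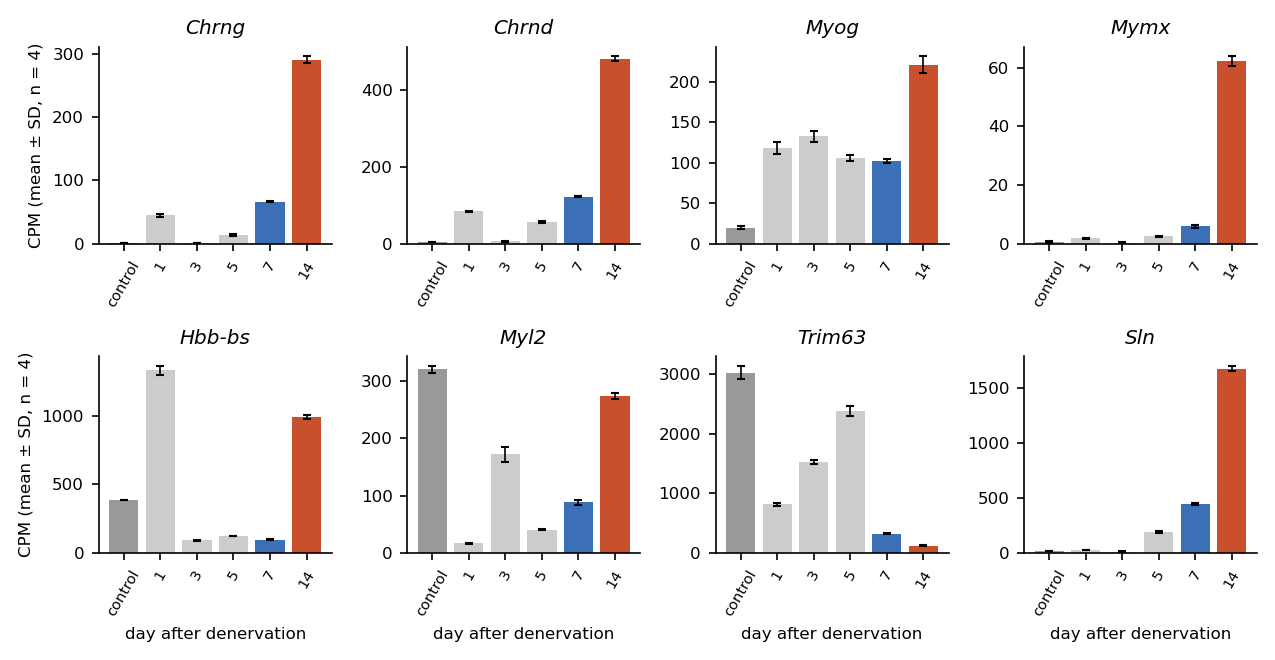
CPM scaled over all 24 libraries (mean ± SD, n = 4 libraries per group) of 8 genes in control (dark grey), at days 1, 3 and 5 (light grey), at day 7 (blue) and at day 14 (red). Chrng, Chrnd, Myog, Mymx and Sln are highest at day 14, Trim63 is lowest there, Hbb-bs is highest at day 1, and Myl2 at day 14 stands near its control level.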

How the data were processed

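Polyadenylated RNA of mouse gastrocnemius was sequenced in 24 libraries, of which the 4 of day 7 and the 4 of day 14 after denervation were compared. The authors deposited estimated counts per gene and TPM, a level per transcript length and library, for each library, per the file headers. The sources used here name no aligner, quantifier, genome build or strand setting. Of the deposited counts of the 8 libraries, 7.21% were not whole (farther than 1e-06 from a whole number) and were rounded. Of 21965 gene IDs, 21854 matched GENCODE M21 (GRCm38), which supplied the coordinates.

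Genes were kept by the default rule of filterByExpr, scaled by TMM and tested two-sided with glmQLFit and glmQLFTest of edgeR 4.0.16 (R 4.3.3), with p-values adjusted by Benjamini and Hochberg over 13548 genes. DESeq2 1.42.0, other scalings and filters, a replicate block, a fit of all 24 libraries and each library left out were alternatives. The fit was also run on simulated counts in which 200 genes changed and all genes had the same biological coefficient of variation. There edgeR found 9 of 50 genes changed 1.1-fold and 47 of 50 changed 2-fold. Far more genes were called in the deposited data, so the simulation does not measure false calls there. Libraries of a group differed by more than sampling noise (mean chi-square per gene 2.01 to 2.44).

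The comparison and the gene lists were chosen with earlier results of these data known. Lists are described by counts and medians, with no test of the list. Genes were named by rule: the 15 genes that rose most and the 15 that fell most, of those averaging 1 or more in log2 CPM whose groups did not overlap, up to 4 of the most changed members of each list that passed, a list of muscle genes chosen for their role and the 5 genes with the highest TPM. Near-identical copies (globin, Orm, Aldh1a7, H2-Q10 and immunoglobulin genes) and overlapping genes are uncertain. Promoter windows are from RefSeq (GRCm38.p6). Some genes that the rule names are not reported here.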

Additional observations from a re-analysis of the deposited data

Results flagged for a closer look

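In 24 of 468 groups of 4 libraries checked over the named genes, 1 library lay farther from the others than Dixon's 95% critical value allows, about the 1 in 20 that chance gives. The distances were small for most genes. In the immune and connective tissue genes, Chil3 stood at 0.925 CPM in day 14 replicate 1 (0.11 to 0.169 CPM in the other 3), Lyve1 at 99.1 CPM in day 7 replicate 3 (91.9 to 92.4 CPM in the other 3) and 24.9 CPM in day 14 replicate 4 (28.0 to 28.2 CPM in the other 3), Cd79b at 1.6 CPM in day 14 replicate 1 (0.789 to 0.886 CPM in the other 3), Cpa3 at 23.0 CPM in day 7 replicate 4 (25.1 to 25.5 CPM in the other 3), Ctsk at 66.4 CPM in day 14 replicate 4 (68.5 to 68.9 CPM in the other 3) and Tnmd at 37.6 CPM in day 7 replicate 4 (33.6 to 34.2 CPM in the other 3).

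Among genes of muscle and growth signals, Sln stood at 505 CPM in day 7 replicate 4 (529 to 531 CPM in the other 3), Fst at 36.0 CPM in day 7 replicate 4 (38.8 to 39.3 CPM in the other 3), Cish at 64.0 CPM in day 7 replicate 2 (58.2 to 59.0 CPM in the other 3) and Rgcc at 45.0 CPM in day 14 replicate 3 (48.3 to 48.6 CPM in the other 3). Rab27b was at 2.21 CPM in day 7 replicate 3 (1.66 to 1.75 CPM in the other 3), Reln at 16.4 CPM in day 7 replicate 1 (18.9 to 19.1 CPM in the other 3) and Kcnj8 at 29.7 CPM in day 14 replicate 1 (28.1 to 28.2 CPM in the other 3).

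Among genes of metabolism and stress, Ppargc1a stood at 14.6 CPM in day 7 replicate 3 (11.6 to 12.1 CPM in the other 3), Lpl at 542 CPM in day 7 replicate 4 (555 to 557 CPM in the other 3), Lep at 14.2 CPM in day 14 replicate 4 (10.6 to 11 CPM in the other 3), Aox2 at 1.38 CPM in day 14 replicate 2 (1.97 to 2.09 CPM in the other 3), Nqo1 at 7.65 CPM in day 14 replicate 4 (5.75 to 6.01 CPM in the other 3), Chac1 at 2.59 CPM in day 14 replicate 3 (1.93 to 2.02 CPM in the other 3) and Orm1 at 3.35 CPM in day 14 replicate 4 (1.79 to 1.92 CPM in the other 3). The respiratory chain genes with a library apart were Ndufb2 at 75.9 CPM in day 14 replicate 2 (66.9 to 67.9 CPM in the other 3), mt-Co1 at 31575 CPM in day 14 replicate 3 (31353 to 31389 CPM in the other 3) and mt-Co3 at 10991 CPM in day 7 replicate 4 (10902 to 10916 CPM in the other 3).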

How the results depend on the processing

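The number of genes called stayed within 1.5 times the main count under all 15 alternatives, from 6992 with DESeq2 to 7621 with no filter on low counts, against 7487. Without 1 library at a time it was 7004 to 7197. With the replicate number as a block, 7495 genes were called, and among the named genes it changed the call of Igkc alone (adjusted p = 0.054). Same-numbered libraries correlated by only 0.01 to 0.09 in their deviations from the group means, not every library correlated best with its own number, and the numbers were not taken to pair the days. Scaling by library totals alone called 3086 higher and 4404 lower genes. Of 3487 values of 233 named genes over the alternatives, 3456 kept direction and side of the threshold, none turned direction, 29 no longer passed and 2 newly passed. The 29 belonged to Cd79b, Ckap2, Cntf, Igkc, Jchain, Nrtn and Postn, all but Postn at low level, and the 2 to Hdac4. The cause was not tested. List medians were less steady: of 764 values over the alternatives, 104 moved by at least the SD of the median between libraries of a day. These came from 41 of the 51 lists. Of 1528 counts of members that rose or fell, 30 moved beyond 1.5 times the main count. The lymph node vessel and B cell list had no value when genes had to reach 1 CPM in 4 or more libraries. How the depth limits detection at low levels was not tested.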

Other observations

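Alpi, whose rise was the largest among genes averaging 1 or more in log2 CPM with groups that did not overlap, lies on chromosome 1 beside Chrnd and Chrng, 89.0 kb from the start of Chrnd (GRCm38), and Chrnd ends 4.59 kb before Chrng begins. This neighbourhood was looked at after the values were seen. Of 6 tested genes within 100 kb of the 3, 5 rose and 1 fell. The window was drawn around Alpi, Chrnd and Chrng, and these 3 are among the 5 that rose. Over all genes tested, 27.4% rose and 27.9% fell. Besides Alpi, Chrnd and Chrng, Eif4e2 rose by 0.17 ± 0.037 and Efhd1 by 0.30 ± 0.083 on the log2 scale, and Dis3l2 fell by 0.20 ± 0.051 (log2 fold change ± SE, edgeR, adjusted p = 0.00023, 0.0026 and 0.0015).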
